A study of Danio rerio with 12 samples.

Results

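The hoxb1a to hoxb4a interval is a stretch of 158 kb on zebrafish chromosome 3 (Zv9, chr3:23952000-24110000) that holds hoxb4a, hoxb3a and hoxb1a with flanks on both sides. Open chromatin in it was described from the ATAC-seq peaks of 12 samples. Overlapping peaks of all samples (by 1 bp or more) were joined, and every merged region that overlapped the interval was taken. This gave 76 of the 245646 regions of the whole series. The rule uses position alone and no measured value, while the interval itself was picked with earlier results of these data known. Of these 76 regions, 57 were called in at least 3 samples and could be compared between conditions by a test, and 19 were called in 1 or 2 samples only.

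Hox genes encode homeodomain transcription factors that give cells their position along the anteroposterior axis. They lie in clusters, and the genes at the 3′ end of a cluster, such as hoxb1a, are active earlier and more anteriorly than those further 5′. Retinoic acid (RA) is a classical inducer of the 3′ genes. It binds RA receptors (RAR), which sit on DNA as heterodimers with RXR and recruit corepressors without the ligand and coactivators with it. In the mouse, RAR binding elements that control Hoxb1 and Hoxb4 are known beside these genes. In zebrafish, hoxb1a acts in the hindbrain, in the identity of rhombomere 4 and of facial motor neurons, and hoxb3a and hoxb4a are expressed from successively more posterior levels of the hindbrain.

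The embryos carried the transgene Tg(sox17:GFP), in which the sox17 promoter marks endodermal cells with GFP. They were kept through the blastula and gastrula periods up to the 3-somite stage in RA, in BMS493 or in the solvent DMSO. BMS493 is an inverse agonist that holds RAR in its repressive state. GFP+ cells of RA-treated, BMS493-treated and DMSO-treated embryos form the endodermal conditions RA, BMS493 and DMSO. GFP− cells of DMSO-treated embryos form the non-endodermal condition (NE), which is a mixture of all other cell types. Each condition had 3 samples, and all embryos were at the 3-somite stage and carried the transgene. The labels do not say whether the samples came from separate clutches, so that p-values measure the spread between these samples only.

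ATAC-seq marks accessible DNA by the adapters that a transposase places in it, and peaks are called where the insertions pile up. The authors called peaks with MACS2 in each sample alone. A list gives for each peak its pileup, which is the number of extended tags at its summit, and its fold over the background around it, and neither was scaled between samples. The lists held 51301 to 143755 peaks, made from 11056595 to 22930744 tags, and DMSO replicate 1 had the shortest list. To compare samples, each pileup was turned into its percentile rank within its own list, from 0 to 100, with 0 for a region without a peak. A region without a peak is not thereby closed, since signal under the calling threshold is not listed. In sorted cells, fewer cells with an open region and a weaker opening in every cell cannot be told apart. The labels were checked at genes with a known cell type within 50 kb of their start. Of 28 regions near sox32, which encodes an endodermal Sox factor, 4 were called in every DMSO and no NE sample, and of 26 near gata6 there were 3. Near mnx1, a gene of pancreatic and neural progenitors, there were 0 of 22, and near tp63, which encodes the epidermal factor p63, 0 of 22 were called in every NE and no DMSO sample. Against the labels, 1 region near sox32 was called in every NE and no DMSO sample, and 1 near tp63 ranked higher in DMSO than in NE by limma.

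The interval was dense in open regions. It held 4.81 regions per 10 kb, against 1.72 on chromosome 3 as a whole. Of the 76 regions, 16 (21.1%) were called in all 12 samples, against 11.6% of all regions. Another 14 (18.4%) were called in 1 sample only, against 36.2% of all regions, and the 57 called in at least 3 samples made 75%, against 51.7%. The median width of the 76 was 280.5 bp, against 193 bp over all regions, and the widest spanned 904 bp near the end of hoxb4a. These are descriptions of neighbouring regions of 1 locus, and no test was made of them.

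Regions lay on both sides of each end of the interval. The first region inside its low end, at −107.7 kb from the start of hoxb1a, had pileups of 7 in RA replicate 3, 12 in DMSO replicate 3, and 10, 11 and 8 in NE. The nearest region outside that end was called in DMSO replicate 2 alone. At the high end, the first region inside, at 43.5 kb, had pileups of 7 in BMS493 replicate 3 and of 8 and 10 in NE replicates 1 and 2. The nearest region outside, at 50.7 kb, was called in 10 samples.

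RA samples called 52, 44 and 37 of the 76 regions, BMS493 samples 32, 47 and 39, DMSO samples 25, 52 and 53, and NE samples 41, 55 and 36. All conditions overlapped in this number. DMSO replicate 1 called the fewest regions and NE replicate 2, which has the longest list, called the most. NE replicate 3, with 103930 peaks, called fewer than RA replicates 2 and 3, BMS493 replicate 3 and NE replicate 1, which have shorter lists. Per 1000 peaks of its list, a sample called 0.443 to 0.467 regions in RA, 0.406 to 0.45 in BMS493, 0.436 to 0.487 in DMSO and 0.346 to 0.428 in NE. By this measure, every NE sample lay below every RA and DMSO sample and overlapped with BMS493.

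**Figure D1:**
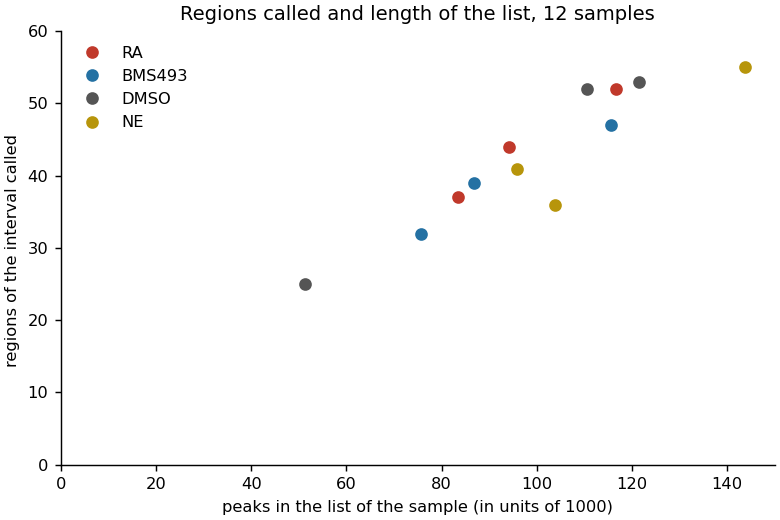
Number of regions of the interval that each of the 12 samples called (vertical axis, of 76) against the number of peaks in its list (horizontal axis, in units of 1000 peaks), with 1 point for each sample and 1 colour for each condition. The counts run between 25 regions in DMSO replicate 1, with the shortest list, and 55 in NE replicate 2, with the longest. NE replicate 3 has fewer regions (36) than RA replicates 2 and 3, BMS493 replicate 3 and NE replicate 1, which have shorter lists.

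The peaks of the interval also stood on a raised background. MACS2 estimates a local background for each peak, which can be read back from the pileup and the fold. At the peaks of the interval its median was 1.9 to 5.13 times the genome-wide level of the sample, against 1.13 to 1.37 at all peaks of a list. It was 5.13, 3.77 and 3.28 in RA, 1.9, 4.12 and 2.74 in BMS493, 1.96, 4.69 and 3.71 in DMSO, and 3.04, 3.89 and 3.23 in NE. Over the whole interval the conditions overlapped, and the lowest values were those of BMS493 replicate 1 and DMSO replicate 1, which have the shortest lists of all. Before hoxb4a the median over all peaks was 3.85, and beyond hoxb1a it was 2.33. At the median of the interval, a peak thus needed a higher pileup to be called than at the median of its list. This did not hold throughout. Beyond hoxb1a the median of BMS493 replicate 3 was 1.04, against 1.28 at all peaks of its list. The sample medians there were 3.61, 2.58 and 3.14 in RA and 1.77, 1.8 and 1.04 in BMS493. They were 1.49, 2.27 and 1.8 in DMSO and 2.03, 2.39 and 2.36 in NE. In this segment every RA sample thus lay above every sample of the other conditions. The pileup ranks are not scaled by this background, and its bearing on them was not tested.

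The 16 regions called in all 12 samples were spread over the whole interval. They include 7 before hoxb4a, 2 in hoxb4a, 1 between hoxb4a and hoxb3a, 2 in hoxb3a, 1 between hoxb3a and hoxb1a, 1 at hoxb1a and 2 beyond it. In RefSeq, hoxb2a lies between hoxb3a and hoxb1a, and its position on Zv9 was not used here. Positions of the other genes are those the study lists for Zv9, without their exons, so that exonic and intronic regions were not told apart.

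**Figure D2:**
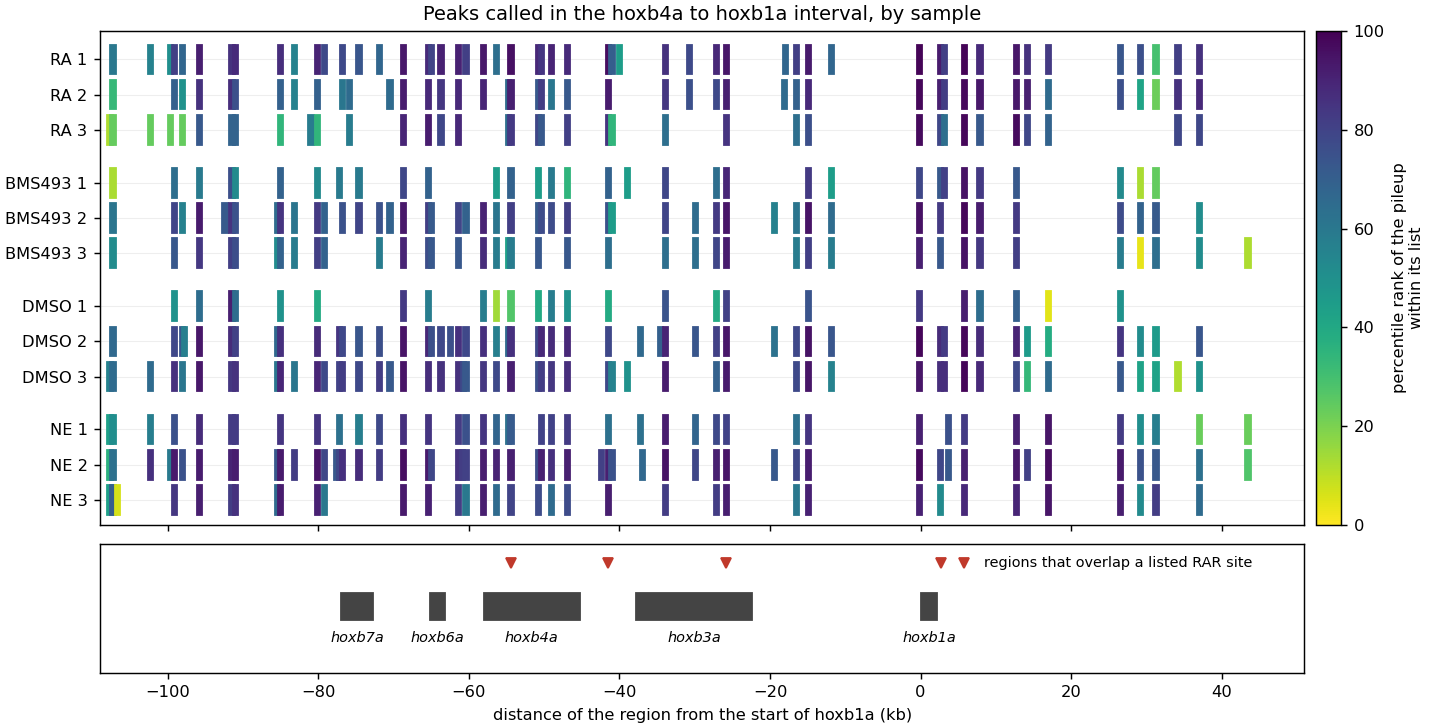
Peaks called in each of the 12 samples (rows) along the interval, with the distance from the start of hoxb1a in kb on the horizontal axis. Colour gives the percentile rank (0 to 100), and boxes are drawn wider than the peaks. Grey bars and triangles below mark genes and the 5 regions at listed RAR sites. The region at 7.9 kb is missing in the NE rows. That at 34.2 kb is present in the 3 RA rows and otherwise only in DMSO 3.

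The start of hoxb1a (ENSDARG00000008174, chr3:24060139-24062383) lay in 1 of the tallest regions of the interval, chr3:24059752-24060416. Pileups there were 52, 41 and 35 in RA, 17, 36 and 24 in BMS493, 17, 44 and 31 in DMSO, and 25, 46 and 22 in NE. Its mean rank was 98.2 ± 0.749 in RA, 88.5 ± 8.87 in BMS493, 92.1 ± 7.85 in DMSO and 93.1 ± 3.68 in NE (SD, n = 3 each). The RA samples were high throughout, but their pileups overlapped those of every other condition. By rank, every RA sample (97.5 to 99) lay above every BMS493 sample (78.6 to 95.7) and every NE sample (90.8 to 97.3). The RA ranks overlapped with those of DMSO (83.4 to 98.7). By limma, a linear model per region whose variances are moderated across regions, RA exceeded BMS493 by 9.68 ± 4.60 rank points (SE) with an adjusted p of 0.551. RA exceeded DMSO by 6.14 ± 4.60 points (limma adjusted p = 0.946).

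At hoxb4a (ENSDARG00000013533, chr3:24002080-24014840), the region over the start, chr3:24001806-24002200, was called in 10 samples. Its pileups were 34 and 25 in RA replicates 1 and 2, 28 and 21 in BMS493 replicates 2 and 3, 11, 23 and 21 in DMSO, and 20, 33 and 23 in NE. Calls were missing in 1 RA and 1 BMS493 sample, and the mean rank was 61.0 ± 52.8 in RA, 59.3 ± 51.4 in BMS493, 76 ± 15.7 in DMSO and 89.3 ± 4.2 in NE (SD, n = 3 each). The spread within RA and BMS493 was larger than any difference between conditions. Within the hoxb4a model also lies the microRNA gene dre-mir-10c, of a family that is embedded in Hox clusters.

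The study lists 2 starts for hoxb3a (ENSDARG00000029263). Near that of the longer model, chr3:24022350-24037715, the closest region was called in DMSO replicate 2 and NE replicate 1 alone, with pileups of 15 and 13. The start of the shorter model, at position 24034109, lies in the region chr3:24033906-24034737, which was called in all 12 samples. Pileups of 35, 27 and 20 in RA, 23, 33 and 25 in BMS493, 16, 31 and 29 in DMSO, and 18, 37 and 23 in NE were measured. Its mean rank was close to 90 in every condition, with 90.2 ± 4.55 in RA, 92.0 ± 2.42 in BMS493, 89.2 ± 7.34 in DMSO and 88.7 ± 7.39 in NE (SD, n = 3 each). The 4 differences tested by limma lay between −1.76 and 2.72 points with an SE of 4.74.

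The 5 regions of highest mean rank over the 12 samples were those at 5.8 kb (94.6), −0.1 kb (93.0), −68.7 kb (90.5), −25.8 kb (90.0) and −14.9 kb (87.2). The region at −68.7 kb (chr3:23991056-23991765) lies between hoxb7a and hoxb6a, which encode factors of the trunk. Its pileups were 34, 28 and 23 in RA, 17, 32 and 23 in BMS493, 17, 32 and 32 in DMSO, and 21, 42 and 25 in NE. That at −14.9 kb (chr3:24045055-24045484) had pileups of 33, 24 and 16 in RA, 19, 34 and 18 in BMS493, 14, 33 and 31 in DMSO, and 20, 33 and 22 in NE. In both, the conditions overlapped fully, and no limma difference exceeded 4.31 points in size.

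RAR sites mapped by ChIP-seq of a tagged RARaa were compared with the regions. That ChIP-seq used whole embryos, injected with mRNA of the tagged RARaa and briefly given RA, and not sorted cells. The study's lists of sites near RA-regulated genes and of sites with conserved sequence give 7 in the interval, and 5 of them overlapped a region. The remaining 2 lay 157 and 670 bp from the nearest region. Since those lists were chosen for RA-regulated genes and for conservation, other sites may lie in the interval, and no test of the overlap was made. Of the 5 regions, 4 were called in all 12 samples and the fifth in 10, so that these regions were open also in BMS493 and in NE. Whether RAR was bound there in the sorted cells or under BMS493 was not measured.

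The tallest region at a listed RAR site was that at 5.8 kb (chr3:24065618-24066176), on the 3′ side of hoxb1a. Its pileups reached 53, 40 and 38 in RA, 30, 44 and 29 in BMS493, 22, 42 and 44 in DMSO, and 19, 32 and 20 in NE. Its mean rank was 98.4 ± 0.636 in RA, 96.3 ± 1.72 in BMS493, 96.2 ± 3.9 in DMSO and 87.4 ± 4.4 in NE (SD, n = 3 each). The endodermal conditions overlapped, and DMSO exceeded NE by 8.75 ± 3.32 points (SE), which did not pass the threshold over all regions (limma adjusted p = 0.149). It was passed in 2 of 21 alternatives. Without DMSO replicate 1, the difference was 11 points with a limma adjusted p of 0.0328. With every list cut to the length of the shortest, the difference was 20.4 points (limma adjusted p = 0.00035).

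Closer to hoxb1a, the region at 2.7 kb (chr3:24062747-24063004) had pileups of 33, 27 and 17 in RA and of 15, 22 and 15 in BMS493. It was called in DMSO replicates 2 and 3 with 24 and 23, and in NE replicates 2 and 3 with 22 and 9. All RA and BMS493 samples called it, and 1 sample each of DMSO and NE did not. RA exceeded DMSO by 29.5 ± 20.2 points (limma adjusted p = 0.925), with DMSO replicate 1 at 0.

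The region at −41.5 kb (chr3:24018375-24018899), between hoxb4a and hoxb3a, had pileups of 41, 28 and 20 in RA, 14, 18 and 13 in BMS493, 9, 19 and 18 in DMSO, and 13, 32 and 23 in NE. All RA samples were above all BMS493 and all DMSO samples, and overlapped with NE. RA exceeded DMSO by 26 ± 10 points (unadjusted p = 0.0187, limma adjusted p = 0.543) and BMS493 by 22.1 ± 10 points (unadjusted p = 0.0408, limma adjusted p = 0.505). Neither passed the threshold over all regions, here or in any of the 21 alternative settings tried, which include leaving out each sample in turn. In hoxb4a, the region at −54.4 kb (chr3:24005612-24005948) had pileups of 39, 27 and 19 in RA, 14, 21 and 12 in BMS493, 8, 23 and 27 in DMSO, and 15, 32 and 15 in NE. By pileup, the RA samples overlapped with the other conditions. By rank, every RA sample (83.3 to 95.9) lay above every BMS493 sample (58.4 to 81.4), while RA overlapped with DMSO and NE. RA exceeded DMSO by 22.0 ± 12.4 points (limma adjusted p = 0.830) and BMS493 by 20.7 ± 12.4 points (limma adjusted p = 0.744).

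**Figure D3:**
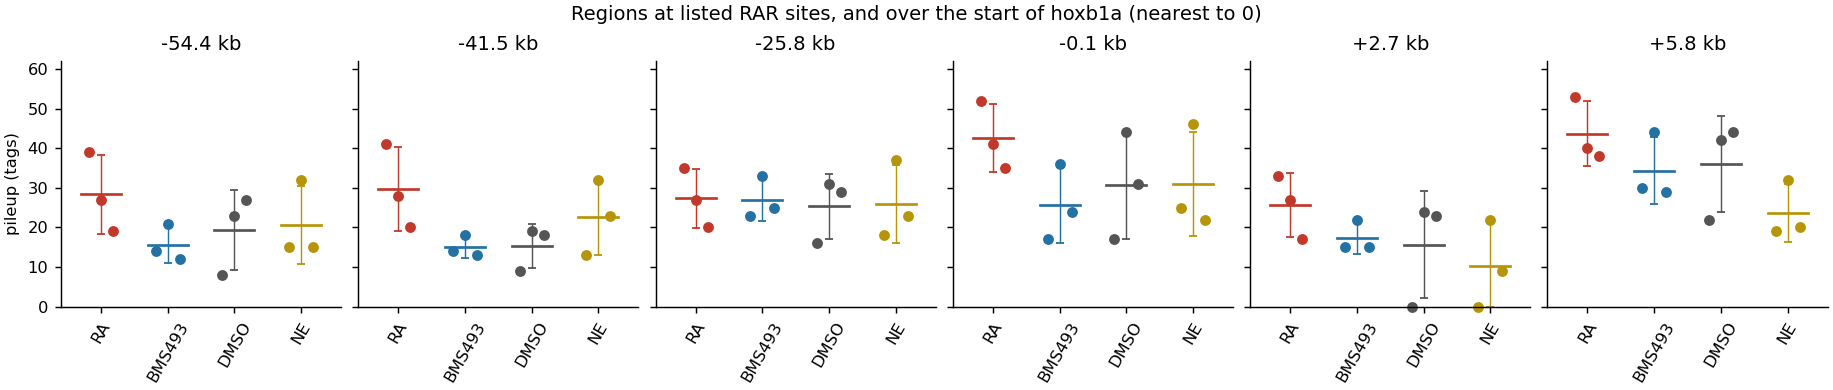
Pileup in tags (vertical axis) of the 5 regions at listed RAR sites and of the region at the start of hoxb1a, with 1 point for each of 3 samples per condition, a line at the mean and bars of 1 SD cut at 0. At −41.5 kb the RA points, 20 to 41, lie above those of BMS493 (13 to 18) and DMSO (9 to 19), while at −25.8 kb all conditions overlap.

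The effect of added RA was read from RA against DMSO. A single region, at 34.2 kb beyond the start of hoxb1a, ranked higher in RA, which is 1 of the 57 tested (1.75%), against 0.194% of all 127026 tested regions. It entered the tested set only with its RA peaks, since 1 other sample called it, and without the filter on the number of samples 0 regions were called. None ranked lower, against 0.0362% of all tested regions. At an unadjusted p under 0.05, 6 regions were higher (10.5%, against 4.44% of all tested regions) and 1 was lower (1.75%, against 2.54%). By presence, which asks for a peak in all 3 samples of a condition and none in the other condition, no region differed in either direction, against 0.686% of all regions for RA without DMSO and 0.254% for DMSO without RA.

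The region at 34.2 kb (chr3:24094168-24094415) is 248 bp wide and lies within a gene model on the opposite strand (ENSDARG00000097891, chr3:23993156-24152182), which spans the Hox genes. It had pileups of 22, 22 and 17 in RA, no peak in any BMS493 sample, a peak of 7 in DMSO replicate 3 alone, and no peak in any NE sample. The RA samples thus stood apart from the 9 others, and their folds over the local background were 8.58, 8.53 and 8.3, against 3.72 in DMSO replicate 3. Within 10 kb of it, other peaks were called down to a pileup of 6 in BMS493, 10 in DMSO and 8 in NE. The mean rank was 81.9 ± 3.5 in RA and 3.96 ± 6.86 in DMSO (SD, n = 3 each), a difference of 78.0 ± 12.8 points (SE, limma adjusted p = 0.028). Without the filter on the number of samples, which this region passed only through RA, the limma adjusted p was 0.0715.

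The threshold was passed against DMSO in 7 of 21 alternatives, with limma adjusted p-values between 0.00235 and 0.163 and differences between 66.7 and 81.9 points. It was lost without 11 of the 12 samples in turn, all but RA replicate 1, with limma adjusted p-values of 0.0569 to 0.163.

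Beside it, the region at 14.2 kb had the next largest difference, of 59.0 ± 20.3 points (unadjusted p = 0.00959, limma adjusted p = 0.404). With every list cut to its 51301 most significant peaks, as many as DMSO replicate 1 has, it was 73.2 points and passed the threshold (limma adjusted p = 0.0101). The regions at 37.1 kb (43.4 ± 19.6 points), 17.0 kb (36.2 ± 15.8), −41.5 kb (26 ± 10) and 12.8 kb (15.8 ± 5.28) were the others higher in RA at an unadjusted p under 0.05, with limma adjusted p-values of 0.373 to 0.683. Of these 6 regions, 5 lie beyond hoxb1a. At −77.2 kb, over the start of hoxb7a, RA lay at −54.9 ± 24.2 points against DMSO (limma adjusted p = 0.664), with no peak in any RA sample and pileups of 22 and 19 in DMSO replicates 2 and 3.

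Among the tested regions, 30 had a higher and 26 a lower mean rank in RA than in DMSO, with a median difference of 0.85 points, against 0 over all tested regions. Above 0 were 52.6% of the tested regions of the interval, against 49.8% of all tested regions. By segment, the median was 15.8 points over the 13 tested regions beyond hoxb1a, of which 10 were above 0. It was −2.42 over the 25 before hoxb4a, 10.6 over the 8 in hoxb4a and 21.2 over the 2 between hoxb4a and hoxb3a. It was −7.42 over the 4 in hoxb3a and −11.3 over the 4 between hoxb3a and hoxb1a, with 1 of 4 above 0 in each.

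The effect of blocked RAR signalling was read from BMS493 against DMSO. No region of the interval ranked higher, against 0% of all tested regions, and none ranked lower, against 0.000787%. At an unadjusted p under 0.05, limma had 0 regions higher, against 0.786% of all tested regions, and 2 lower (3.51%, against 0.989%), those at −63.7 and 17.0 kb. By presence, no region was called in BMS493 alone, against 0.105% of all regions, and 1 was called in DMSO and not in BMS493, against 0.11%. This was the region at 17.0 kb.

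The region at 17.0 kb (chr3:24076908-24077339) had no peak in any BMS493 sample and pileups of 6, 10 and 14 in DMSO. The DMSO pileups were low, and 1 of them was the lowest of its neighbourhood, where other DMSO peaks within 10 kb reached down to 9 and other BMS493 peaks to 10. BMS493 lay at −36.1 ± 15.8 points against DMSO (unadjusted p = 0.0349, limma adjusted p = 1). The presence call was lost under 3 alternatives: a −log10(q) of at least 3, lists cut to equal length, and a required coverage of 50% of the region. At −63.7 kb, BMS493 lay at −54.7 ± 19.4 points against DMSO (unadjusted p = 0.0115, limma adjusted p = 1), with no peak in BMS493 and pileups of 19 and 22 in DMSO replicates 2 and 3.

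Over the 57 tested regions, 17 had a higher and 39 a lower mean rank in BMS493 than in DMSO, with a median difference of −3.46 points, against 0 over all tested regions. Above 0 were 29.8% of the tested regions of the interval, against 46.0% of all tested regions.

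RA and BMS493, the opposite ends of RAR signalling, differed in more regions of the interval. In RA, 2 regions ranked higher (3.51%), against 0.625% of all tested regions, and none ranked lower, against 0.131%. At an unadjusted p under 0.05, 7 were higher (12.3%, against 5.64% of all tested regions) and 0 lower, against 3.47%. By presence, 4 of the 76 regions (5.26%) were called in every RA and no BMS493 sample, against 1.22% of all regions, and none in the other direction, against 0.577%. These 4 regions lie at −63.7, 14.2, 17.0 and 34.2 kb. A presence call needs a peak in at least 3 samples, which 75% of the regions of the interval and 51.7% of all regions had. Among those, RA without BMS493 made 4 of 57 in the interval and 2988 of 127026 over all.

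**Figure D4:**
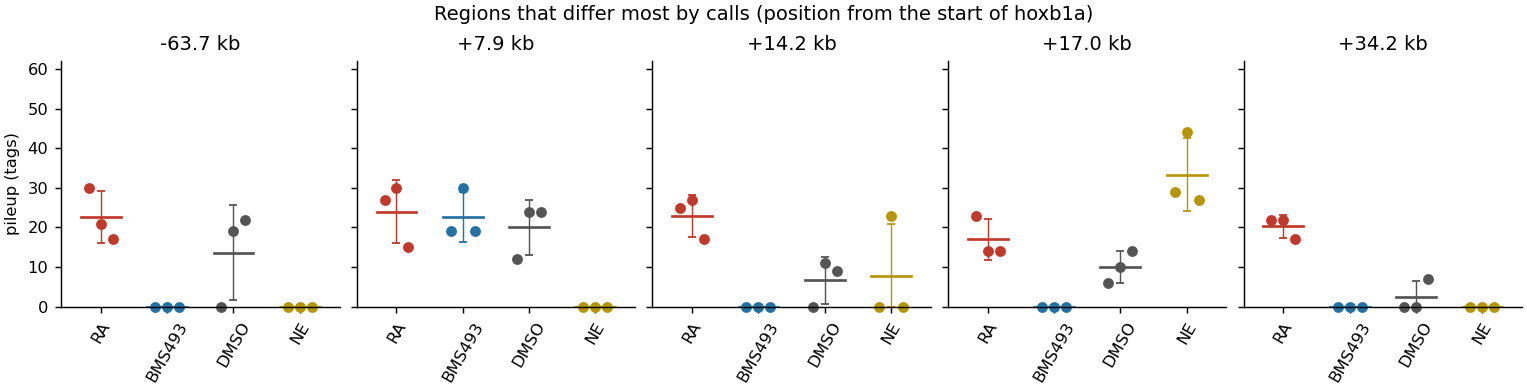
Pileup in tags (vertical axis) of the 5 regions called by presence or by limma in the 4 comparisons made. These were RA and BMS493 each against DMSO, RA against BMS493, and DMSO against NE. Each panel has 1 point for each of 3 samples per condition, a line at the mean and bars of 1 SD cut at 0. A point at 0 is a sample without a peak. BMS493 lies at 0 in the 4 panels other than 7.9 kb, and NE lies at 0 at −63.7, 7.9 and 34.2 kb.

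At 34.2 kb, RA exceeded BMS493 by 81.9 ± 12.8 points (SE, limma adjusted p = 0.0207). The region met the filter on the number of samples only with its RA peaks, since 1 other sample called it. Without that filter, the limma adjusted p was 0.038. The threshold was passed in 14 of 21 alternatives, with limma adjusted p-values between 0.00173 and 0.14. It was lost without NE replicates 1 and 3, RA replicates 2 and 3 and each BMS493 replicate in turn, with limma adjusted p-values of 0.0514 to 0.14.

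At 17.0 kb, the RA samples had pileups of 23, 14 and 14, against no peak in BMS493, and mean ranks were 72.3 ± 9.5 in RA and 0 in BMS493 (SD, n = 3 each). The difference was 72.3 ± 15.8 points (SE, limma adjusted p = 0.0412). It passed the threshold in 5 of 21 alternatives, with limma adjusted p-values between 0.00935 and 0.975, and was 42.6 points by the rank of the fold enrichment (limma adjusted p = 0.365). Leaving out samples in turn, it was kept only without DMSO replicate 1 or 3, and was lost in the 10 other cases (limma adjusted p = 0.0597 to 0.157).

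The region at 14.2 kb (chr3:24074144-24074446) had pileups of 25, 27 and 17 in RA and no peak in BMS493. It had 11 and 9 in DMSO replicates 2 and 3, and 23 in NE replicate 2 alone. Every RA pileup was above every DMSO pileup, and within 10 kb BMS493 samples called other peaks down to a pileup of 10. RA exceeded BMS493 by 85.3 ± 20.3 points, just short of the threshold (limma adjusted p = 0.0595), and passed it in 4 of 21 alternatives. Among these were the fits without NE replicate 2 (adjusted p = 0.0492) and without DMSO replicate 1 (adjusted p = 0.0416).

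The region at −63.7 kb (chr3:23996325-23996627) overlaps the 3′ part of hoxb6a (ENSDARG00000010630, chr3:23994945-23996987). It had pileups of 30, 21 and 17 in RA, no peak in BMS493, 19 and 22 in DMSO replicates 2 and 3, and no peak in NE. RA and DMSO overlapped, apart from DMSO replicate 1, which had no peak. Within 10 kb, other peaks were called down to a pileup of 10 in BMS493 and 9 in NE. The region met the filter of 3 samples only with its RA peaks, since only 2 other samples called it. RA exceeded BMS493 by 84.5 ± 19.4 points (limma adjusted p = 0.0515), and passed the threshold in 5 of 21 alternatives. Without DMSO replicate 1 or 3, the limma adjusted p was 0.011 or 0.0429.

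The region at 12.8 kb (chr3:24072634-24073286) was called in all 12 samples. It had pileups of 35, 30 and 34 in RA, 15, 22 and 18 in BMS493, 13, 26 and 18 in DMSO, and 25, 36 and 21 in NE. By pileup, the RA samples were all above the BMS493 and DMSO samples and within the range of NE. By rank, the RA samples (93.7 to 97.2) lay at or above the highest NE sample (93.7). By the fold over the local background, RA (9.14 to 11.3) overlapped with BMS493 (7.12 to 9.4) and DMSO (6.63 to 9.43). RA exceeded BMS493 by 15.8 ± 5.28 points (unadjusted p = 0.00788, limma adjusted p = 0.231), and passed the threshold with lists of the same length, with 25.7 points (limma adjusted p = 0.0411). At 37.1 kb, with pileups of 25, 24 and 17 in RA and 12 and 11 in BMS493 replicates 2 and 3, the difference was 50 ± 19.6 points (limma adjusted p = 0.376). It passed the threshold with lists of the same length (60.4 points, limma adjusted p = 0.0297). Both were singled out after their values were seen.

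RA against DMSO and RA against BMS493 share the RA samples, so that both hold the same RA values. Over the 57 tested regions, 33 had a higher and 24 a lower mean rank in RA than in BMS493, with a median difference of 4.24 points, against 0.0558 over all tested regions. Above 0 were 57.9% of the tested regions of the interval, against 50.4% of all tested regions. The median was 17.2 points over the 8 regions in hoxb4a, of which 7 were above 0, 11.4 over the 13 beyond hoxb1a and −0.274 over the 25 before hoxb4a. It was 21 over the 2 between hoxb4a and hoxb3a, −10.8 over the 4 in hoxb3a and −9.86 over the 4 between hoxb3a and hoxb1a, with 1 of 4 above 0 in each of the last pair.

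**Figure D5:**
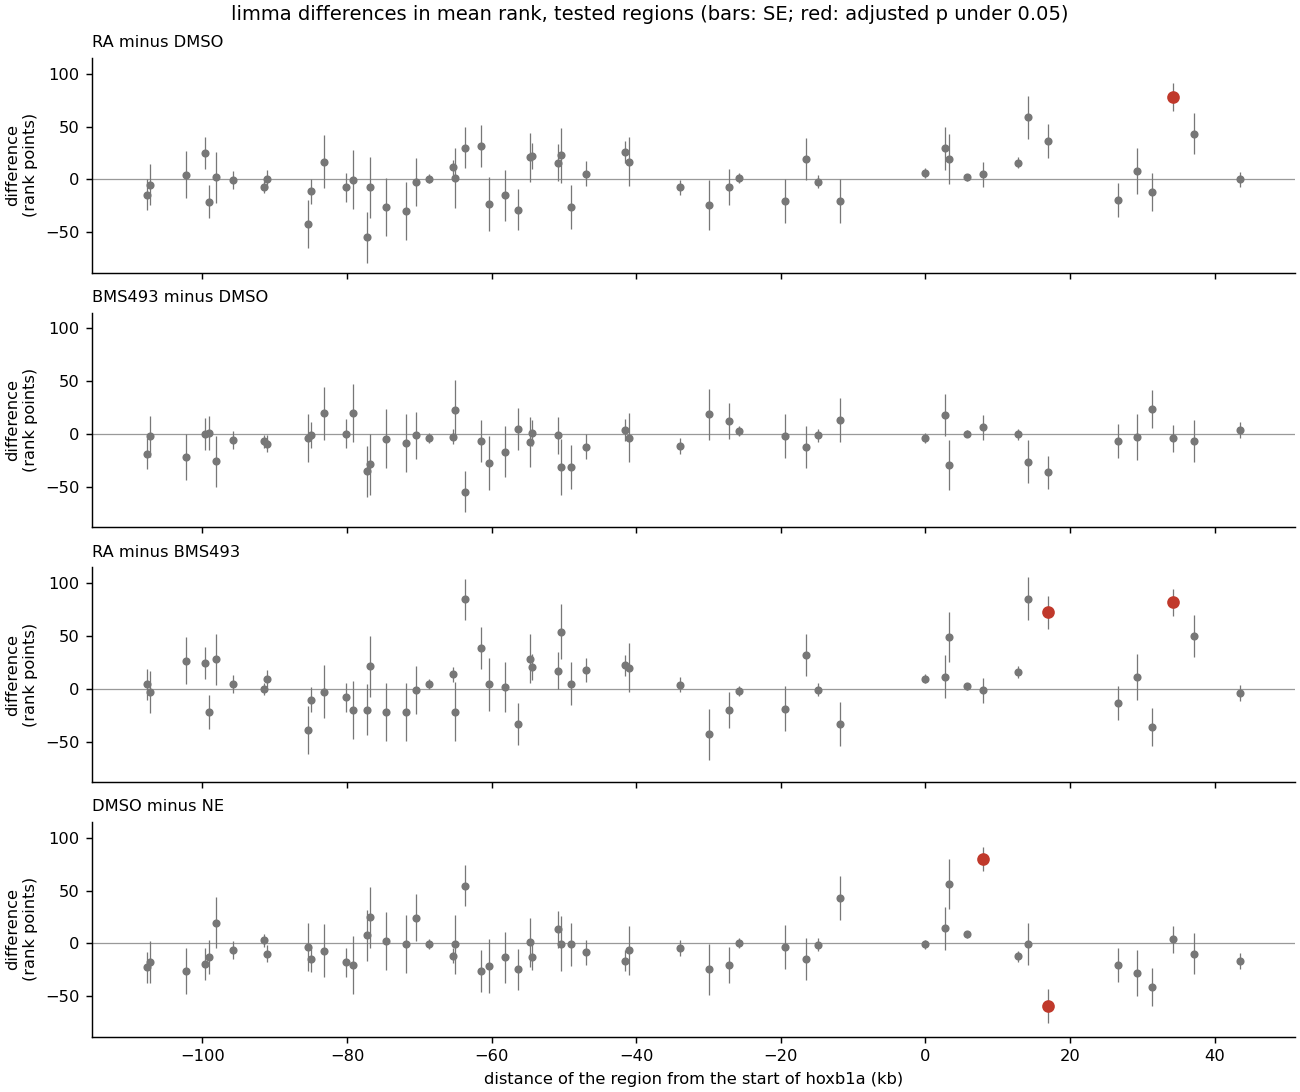
Differences in mean percentile rank by limma (vertical axis, rank points, bars of 1 SE) for the 57 tested regions against their distance from the start of hoxb1a (horizontal axis, kb), with 1 panel for each comparison. Red points have an adjusted p under 0.05, and lie at 34.2 kb (RA minus DMSO), at 17.0 and 34.2 kb (RA minus BMS493) and at 7.9 and 17.0 kb (DMSO minus NE).

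Endodermal and non-endodermal cells of DMSO-treated embryos were compared as DMSO against NE, without a pairing of samples. In DMSO, 1 region ranked higher (1.75%), against 2.16% of all tested regions, and 1 ranked lower (1.75%), against 4.91%. Each of these shares is a single region. Without DMSO replicate 1 the count of higher regions was 4, for which the share of all regions is not given. At an unadjusted p under 0.05, 4 were higher (7.02%, against 5.86% of all tested regions) and 4 lower (7.02%, against 12.5%). By presence, 1 region was called in every DMSO and no NE sample (1.32%), against 0.926% of all regions, and none in the other direction, against 2.37%.

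The region at 7.9 kb (chr3:24067855-24068147), on the 3′ side of hoxb1a, had a peak in each of the 9 endodermal samples, while NE had none. It had pileups of 27, 30 and 15 in RA, 19, 30 and 19 in BMS493, and 12, 24 and 24 in DMSO. The 3 endodermal conditions overlapped, and RA lay 4.68 ± 11.5 points above DMSO (limma adjusted p = 1). Within 10 kb of it, NE samples called other peaks with pileups from 9 to 46. DMSO exceeded NE by 80.1 ± 11.5 points (SE, limma adjusted p = 0.000661), which passed the threshold in 20 of 21 alternatives. The exception was the rank of the fold enrichment, an alternative chosen after the data were seen, with 46.3 points and a limma adjusted p of 0.146.

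The region at 17.0 kb went the other way. Its pileups were 6, 10 and 14 in DMSO, against 29, 44 and 27 in NE, where it was the tallest region of the interval in replicates 1 and 3. No pileup of the DMSO samples reached those of NE, and the mean rank was 36.1 ± 30.4 in DMSO and 95.2 ± 1.38 in NE (SD, n = 3 each). The difference was −59.1 ± 15.8 points (SE, limma adjusted p = 0.0278). It was kept in 15 of 21 alternatives and lost without each NE replicate and without DMSO replicate 1 or 2 (limma adjusted p = 0.0529 to 0.134), and with a required coverage of 50% of the region (limma adjusted p = 0.127). The order of its mean ranks was therefore NE, RA, DMSO and BMS493. RA against DMSO did not pass the threshold over all regions (36.2 ± 15.8 points, limma unadjusted p = 0.0343, limma adjusted p = 0.652). BMS493 against DMSO did not either (−36.1 ± 15.8 points, limma unadjusted p = 0.0349, limma adjusted p = 1), and NE and RA were not compared.

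Without DMSO replicate 1, 3 further regions passed the threshold with a higher rank in DMSO. These were the region at −63.7 kb (82.0 points, limma adjusted p = 0.0035), that at 3.2 kb (84.9 points, limma adjusted p = 0.0248) and that at 5.8 kb at a RAR site. The region at 3.2 kb (chr3:24063252-24063465) had pileups of 22, 20 and 13 in RA, 18 in BMS493 replicate 1, 21 and 23 in DMSO replicates 2 and 3, and no peak in NE. Without DMSO replicate 3, the region at −107.7 kb was lower in DMSO (difference −41.0, limma adjusted p = 0.0445).

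Over the 57 tested regions, 16 had a higher and 41 a lower mean rank in DMSO than in NE, with a median difference of −6.59 points, against −3.78 over all tested regions. Above 0 were 28.1% of the tested regions of the interval, against 38.3% of all tested regions.

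The counts by presence were set beside those within 50 kb of the start of other Hox genes and of genes of RA turnover. The genes hoxb1b and hoxb5b, of the duplicated hoxb cluster, lie close enough that their windows share 32 of 33 regions, so that they count as 1 locus. Each window had 4 of 33 regions called in every RA and no BMS493 sample and 2 in every RA and no DMSO sample. Near hoxc1a there were 7 and 3 of 42 regions. The enzymes encoded by cyp26a1, cyp26b1 and dhrs3a lower RA levels. Near these genes, 2, 4 and 3 of 25, 24 and 25 regions were called in RA and not in BMS493. In RA and not in DMSO there were 2, 1 and 1. The hoxb1a to hoxb4a interval had 4 of 76 and 0 of 76, and the shares of all regions were 1.22% and 0.686%. Near the marker genes sox32, gata6, mnx1 and tp63, 0, 4, 3 and 0 of 28, 26, 22 and 22 regions were called in RA and not in BMS493. By limma, 3 regions near hoxb1b, 2 near hoxc1a, 2 near cyp26a1, 4 near cyp26b1 and 5 near dhrs3a ranked higher in RA than in BMS493. Near sox32, gata6, mnx1 and tp63 there were 1, 0, 2 and 0. The interval had 2 of 57 tested regions, against 0.625% of all tested regions. How many regions were tested in each window is not given here. The windows differ in length from the interval, and no test of these counts was made.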

How the data were processed

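Peak lists of 12 ATAC-seq samples were used. The replicate numbers in 3 NE file headers differ from the labels, and the labels were followed. The submitters' processing notes and methods name Bowtie2 for the alignment to Zv9. Per the file headers, the authors called peaks with MACS2 2.1.1.20160309 without a control, with a shift of 40 bp, an extension to 80 bp, a q-value threshold of 0.05 and at most 1 tag per position. A shift of this sign counts tags downstream of the cut site and not centred on it, which may displace peak positions. The deposited pileup is a signal that cannot exceed 160 tags, the deposited fold is a ratio to the local background, and deposited q-values are given as −log10. The local background was taken from fold = (pileup + 1) / (background + 1).

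Peaks were merged with Python 3.11.15, numpy 2.4.6 and pandas 2.3.3 and checked with bedtools 2.31.1. limma 3.58.1 in R 4.3.3 (trend, robust) was fitted to the ranks of all 12 samples over the 127026 regions with a peak in 3 or more of them. A Benjamini-Hochberg adjusted p-value under 0.05 over these regions was the threshold. The fit was tested on simulated data in which changed regions had no signal either in RA or in all other samples. No result above rests on it. An exact permutation test of 3 against 3 samples gives no p under 0.1. The regions given in full were those past limma's threshold or called by presence, the 5 of highest mean rank, those at gene starts, at listed RAR sites and at the ends of the interval. The members and lists were chosen with earlier results of these data known. Alternatives tried were peaks of −log10(q) from 3 upwards, lists of equal length (51301 peaks), merging within 100 bp, peaks covering 50% of a region, no filter, ranks of −log10(q), the log2 pileup scaled by the tags kept (pseudocount 1), the replicate number as a block, leaving out each sample, and, chosen after seeing the data, ranks of the fold. No genome sequence was used.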

Additional observations from a re-analysis of the deposited data

How the results depend on the processing

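No limma difference of a region followed across the alternatives changed sign. With lists of equal length, the interval held 45 regions, with 7 called throughout and 5 called once. limma then placed 2 regions higher in RA than in DMSO, 6 higher in RA than in BMS493, and 2 higher in DMSO than in NE. The presence counts became 2 for RA without DMSO, 1 for NE without DMSO and 0 for DMSO without BMS493. With a required coverage of 50%, 5 regions were called throughout, limma placed 1 above BMS493 in RA and 0 below NE in DMSO, and presence gave 2 for RA without DMSO and 0 for DMSO without BMS493. A −log10(q) of at least 3 gave 1 region above BMS493 in RA by limma, and by presence 1 for RA without DMSO and 0 for DMSO without BMS493. Without the filter, limma placed 0 regions above DMSO and 1 above BMS493 in RA, and the log2 pileup gave 0 and 4. Ranks of −log10(q) gave 1 above BMS493 in RA, and ranks of the fold gave 1 there and 0 above NE in DMSO. The shares of all regions under the alternatives, with samples left out included, are not given here. A shift in a count of the interval can therefore not be told from a shift over all regions. The cause of these shifts was not tested.

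Leaving out each sample in turn, limma placed 0 to 1 regions above DMSO and 0 to 4 above BMS493 in RA, and 1 to 4 above and 0 to 2 below NE in DMSO. By presence, the counts were 0 to 1 for RA without DMSO, 0 to 2 for DMSO without RA, 1 to 3 for DMSO without BMS493, 0 to 2 for BMS493 without RA, 1 to 4 for DMSO without NE and 0 to 2 for NE without DMSO. The counts of NE without DMSO and of DMSO without NE changed order without NE replicate 3, where they were 2 and 1. Both counts of 4 for DMSO over NE came without DMSO replicate 1, which has the shortest list, as did the 4 for RA over BMS493.

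With the replicate number as a block, 0 regions were above DMSO and 1 above BMS493 in RA, and the other limma counts did not move. The labels give a replicate number and state no pairing. Same-numbered samples did not deviate together in every pair (correlations from −0.154 to 0.206), and not every sample correlated best with its own number. These correlations used the numbers of the labels, from which the NE headers differ. They therefore cannot decide whether samples were paired by embryos or by sort. Regions without a peak were set to 0, so that a peak just under the calling threshold cannot be told from a closed region.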

Other observations

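The ranks of the region at 34.2 kb were compared with those of all other tested regions over the 12 samples, as a description. The most alike elsewhere were chr11:24009158-24009385, chr24:34062648-34062996 and chr17:35064034-35064477, each with a Pearson r of 0.998. All 3 were called in every RA sample and ranked at most 11.9 in any DMSO sample, and the correlation rests on the contrast between RA and the 9 other samples. Within the interval, the most alike were those at 14.2 kb (r = 0.783), −63.7 kb (r = 0.738) and 37.1 kb (r = 0.637). The points share the same 12 libraries and their depth.

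Regions called in few samples varied in pileup, which was not scaled between samples. The 19 regions called in 1 or 2 samples had pileups from 5 to 24. Their folds over the local background were only 2.7 to 4.28, and that of the region at −60.9 kb was 3.29. The tallest, at −60.9 kb, was called in NE replicate 2 alone with a pileup of 24, and lies beside the regions at −61.4 and −60.7 kb, of which the second was called in DMSO replicate 3 alone. At −30.7 kb, in hoxb3a, a region was called in RA replicates 1 and 2 alone with pileups of 20 and 17, and at −75.9 kb one was called in RA replicates 2 and 3 alone with 14 and 12. These were picked out after their values were seen.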
